A study of Sus scrofa with 8 samples.

Results

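AGTR1 and DPP4 are 2 genes, out of 10901 named genes measured, followed through a month of culture of porcine oviductal epithelial cells, the lining cells of the oviduct. They were chosen by these same expression values, because both rose far above their level at 24h, so their own levels and differences are described here without a test. AGTR1 encodes the type 1 receptor of angiotensin II, and DPP4 encodes dipeptidyl peptidase 4, an enzyme on the cell surface also known as CD26. Each gene was read by 1 probe set, 15217068 for AGTR1 and 15236310 for DPP4, named through the platform annotation. The epithelium came from oviducts of Landrace crossbred gilts, unmated female pigs of about 9 months, and the labels count 45 gilts in the study. It was freed with collagenase and trypsin and grown in DMEM with 10% FBS. The labels name no other treatment or genotype and set the groups apart by time: 24h, 7 days, 15 days and 30 days, with 2 Affymetrix arrays each. Whether the same gilts served all times is not given, so the groups may also differ by animals. Both arrays of each time are labelled as biological replicates. RNA came from pooled samples, and it is not given whether separate gilts went into each pool. Any p-value below thus weighs a difference against the spread between these arrays alone, and that spread may be technical.

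Angiotensin II is the active peptide of the renin-angiotensin system, made from angiotensinogen by renin and the angiotensin-converting enzyme. Its type 1 receptor couples to G proteins of the Gq family, raises intracellular calcium, and mediates contraction and growth in vascular and stromal cells, while the type 2 receptor often opposes it. DPP4 cuts a dipeptide ending in proline or alanine from the amino end of peptides, among them incretins, neuropeptide Y and several chemokines. It also binds adenosine deaminase and fibronectin, and its close relative FAP is a protease of activated fibroblasts. Both genes belong to systems with known roles in muscle, vessels and secretion of the reproductive tract.

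AGTR1 rose at every step of the culture. Its log2 expression values were 3.38 and 3.06 on the 24h arrays, 6.58 and 6.12 at 7 days, 8.83 and 8.53 at 15 days, and 9.57 and 9.45 at 30 days. Each array of a time lay above both arrays of the time before. The time means were 3.22 ± 0.22, 6.35 ± 0.32, 8.68 ± 0.21 and 9.51 ± 0.078 (SD, n = 2). Against 24h, AGTR1 was higher by 3.13 log2 units at 7 days (8.76-fold), by 5.46 at 15 days (44.1-fold) and by 6.29 at 30 days (78.2-fold). The pooled SD between arrays of a time was 0.226 log2 units for this gene. On each array the value can also be placed among the named genes. AGTR1 stood at percentiles 18.6 and 10.7 on the 24h arrays, among the faintest signals, and at 95.5 and 95.1 on the 30-day arrays.

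DPP4 also rose at every step. Its log2 values were 3.53 and 3.33 at 24h, 5.49 and 5.21 at 7 days, 7.08 and 7.03 at 15 days, and 9.48 and 9.70 at 30 days. As for AGTR1, the arrays of successive times did not overlap. The time means were 3.43 ± 0.14, 5.35 ± 0.20, 7.06 ± 0.039 and 9.59 ± 0.15 (SD, n = 2). Against 24h, DPP4 was higher by 1.92 log2 units at 7 days (3.79-fold), by 3.63 at 15 days (12.4-fold) and by 6.17 at 30 days (71.9-fold), with a pooled SD of 0.147. The gene moved from percentiles 22.3 and 17.4 of the named genes at 24h through 71.2 on both 15-day arrays to 95.0 and 96.2 at 30 days. At 24h both genes lay below the log2 value of 3.62 that bounds the lowest 25% of genes by mean. Signals there cannot be told from absence of the transcript, since no detection call was used, and a rise from such a level can be understated.

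The total rises of the genes were 6.29 and 6.17 log2 units, and they were spread differently over the month. Shares of a rise are counted here from the 24h values, which lie near the floor of the arrays, so a lower true start would raise every share. By 7 days AGTR1 had reached 49.8% of its 30-day rise on the log2 scale, and by 15 days 86.9%. DPP4 had reached 31.2% and 58.9%. When each array was left out in turn, the AGTR1 shares lay between 46.2% and 53.4% at 7 days and between 84.5% and 89.3% at 15 days. Those of DPP4 lay between 28.8% and 33.5% and between 57.8% and 59.9%. These shares come from the values by which the genes were chosen, and the difference in timing was not tested. From 15 to 30 days AGTR1 gained 0.83 log2 units (1.77-fold) and DPP4 gained 2.54 (5.81-fold). Per day, AGTR1 rose by 0.522 log2 units in the first interval, 0.292 in the second and 0.0551 in the last. DPP4 rose by 0.320, 0.213 and 0.169 per day, a more even course.

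**Figure D1:**
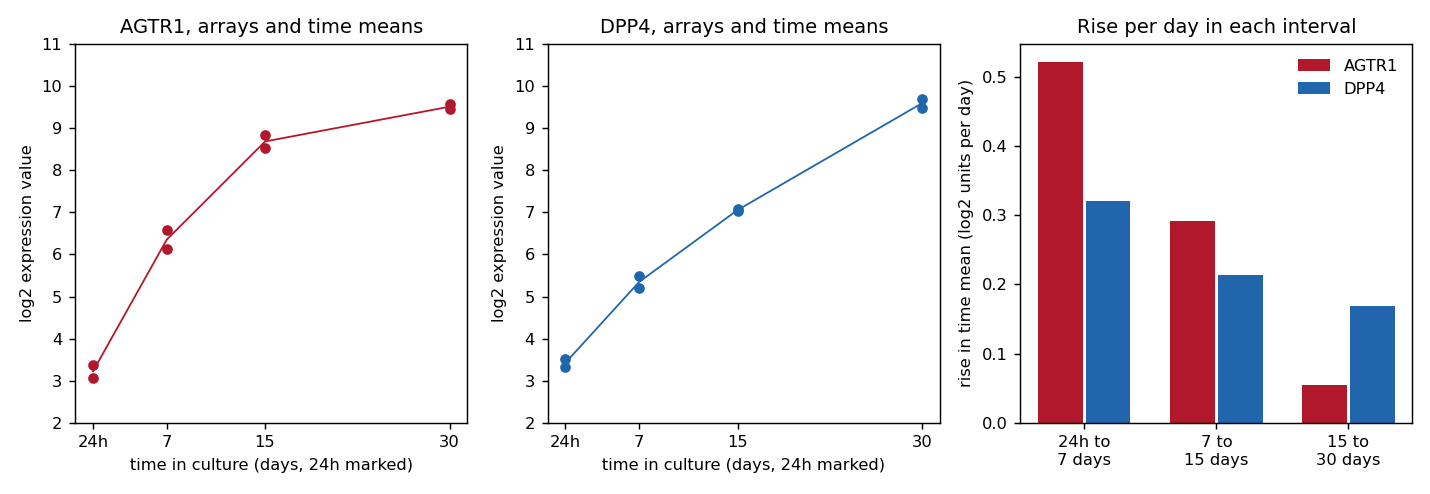
Log2 expression values of AGTR1 and DPP4 against time in culture, with 1 point per array and a line through the means of 2 arrays, and the rise of each time mean per day as bars. AGTR1 slowed from 0.522 to 0.0551 log2 units per day over the 3 intervals, while DPP4 went from 0.320 to 0.169.

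Among all 10901 named genes, AGTR1 ranked 24 by the size of its rise at 7 days and 3 at both 15 and 30 days. DPP4 ranked 172 at 7 days, 42 at 15 days and 5 at 30 days. For the change from 15 to 30 days alone the order was turned, with DPP4 at rank 6 and AGTR1 at rank 153. These ranks describe how the genes were chosen and are no separate evidence. In 418 of 10901 genes (3.83%), every array of a time lay above those of the time before, and AGTR1 and DPP4 were among them. Of these, 14 genes rose by at least 5 log2 units to 30 days. LUM, which encodes the collagen-binding proteoglycan lumican, led them with 6.83, ahead of CHRDL1, whose secreted product binds and blocks bone morphogenetic proteins, with 6.42. AGTR1 came next, followed by the prolactin receptor gene PRLR (6.19), DPP4, the fibrillin gene FBN1 (5.97) and the type I collagen gene COL1A2 (5.94). Then came MYOZ2 (5.58), SGCE (5.55), LOX (5.54), UBD (5.35), COL14A1 (5.28), CDH11 (5.28) and NOX4 (5.00). DPP4 had the largest smallest step of all 10901 genes, 1.71 log2 units between 7 and 15 days. LUM followed with 1.69, a gap far below the spread between arrays. For AGTR1 the smallest step was the last one, and 15 genes had a larger smallest step.

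**Figure D2:**
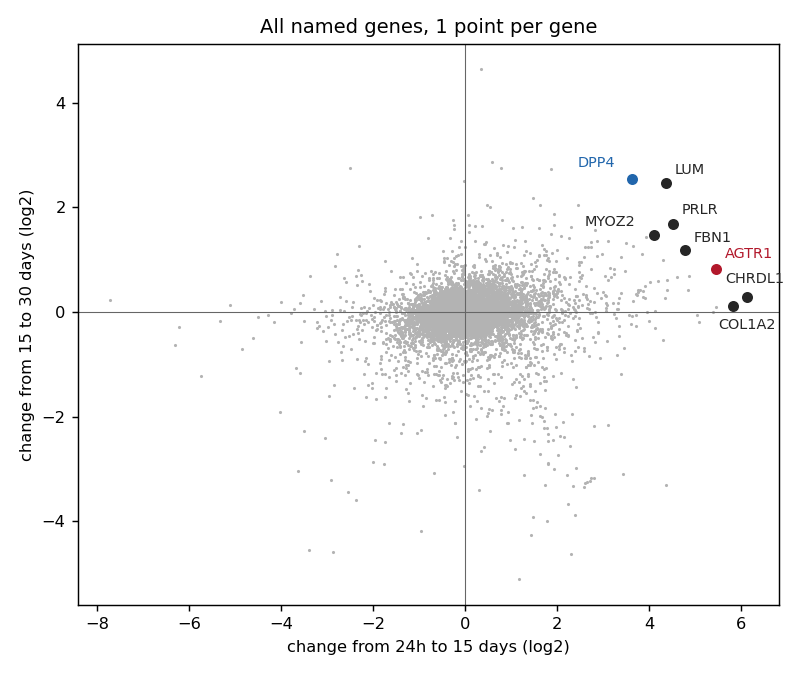
Change of each of 10901 named genes from 24h to 15 days (log2, horizontal) against its change from 15 to 30 days (log2, vertical), with AGTR1, DPP4 and 6 other genes of large rise labelled. AGTR1 lies far right and low (5.46 and 0.83), DPP4 less far right and high (3.63 and 2.54), near LUM.

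The genes whose courses most resembled each member were sought by Pearson correlation over the 8 arrays, among 652 genes whose time means span at least 2 log2 units. The arrays share one course of culture, so high correlations are common. Of the 652 genes, 140 (21.5%) reached 0.95 with AGTR1, and 80 (12.3%) did so with DPP4. AGTR1 was most like ACOT13 (r = 0.998), a thioesterase gene, and DECR1 (0.997), whose product acts in the oxidation of unsaturated fatty acids. EFEMP2, CHRDL1, ITGA1, CDH11, TCTN1 and COL5A2 followed, each at 0.996. Its most opposite genes were XKR8 (-0.995), the epithelial transcription factor gene GRHL2 (-0.993), FAM160A1 (-0.992) and the cell polarity gene PARD6B (-0.992). The mean level of GRHL2 went from 7.53 at 24h to 4.03 at 30 days.

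DPP4 was most like LUM (r = 0.994), then DNAJB4 (0.991), the collagen gene COL8A1 (0.991), ANK2 and NMNAT2 (both 0.99), VWA5A (0.989), C4H8orf37 (0.988) and RUNX1T1 (0.987). The claudin gene CLDN4 (-0.997), RBP4 (-0.996), KCNK1 (-0.996) and TACR3 (-0.995) ran most opposite to it. The lists of 8 for AGTR1 and for DPP4 shared 0 genes. The members correlated with each other at r = 0.949 over 8 arrays and at 0.924 over the 6 arrays after 24h. That placed DPP4 at rank 143 of 652 among the likenesses of AGTR1, and AGTR1 at rank 81 among those of DPP4. By Spearman correlation (0.976), which reads only the order of arrays, the ranks were 8 and 15, each shared with tied genes. By distance between courses (2.20) they were 17 and 24. When likeness was measured as the distance between courses in log2 units, CHRDL1 (0.72) was nearest to AGTR1 and MYOZ2 (1.06), a muscle sarcomere gene, was nearest to DPP4. Names within these lists depend on the measure. Of the 8 for AGTR1, 0 recurred in the Spearman list, 0 without the 24h arrays and 1 by distance. For DPP4 the counts were 0, 2 and 1, and LUM was in the last 2 of these lists. Many genes tie in Spearman correlation, and the lists were cut among ties in order of name. For DPP4 all 8 genes kept tie at 1.0 with others left out, so its count of 0 is arbitrary. For AGTR1 only the last of the 8 places was cut among ties, so its count of 0 is arbitrary in that place alone. NMNAT2 and VWA5A have the same order of arrays as DPP4 but fell outside the cut. DECR1, EFEMP2 and ITGA1 tie with AASS, the last gene kept for AGTR1.

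The cells in culture changed in their markers over the same time, and the part of this change in the rise of AGTR1 and DPP4 was not tested. In such bulk RNA, fewer cells of a type and less RNA per cell cannot be told apart. Of 8 measured epithelial adhesion and identity genes, 6 fell between 24h and 30 days and 0 rose (1 rose without the 24h replicate 2). Over all named genes in this comparison, 20.2% rose and 21.1% fell, and these shares stand behind every count at 30 days given below. The mean log2 level of the list went from 9.95 to 10.01 on the 24h arrays to 6.63 to 6.65 at 30 days. EPCAM, an adhesion molecule of epithelia, fell by 7.93 log2 units, to 3.31 ± 0.11, while the keratin gene KRT8 stayed bright (11.05 ± 0.23 and 11.34 ± 0.16). Among the 14 markers of fibroblasts and mesenchyme, the test called 9 higher and 0 lower (64.3% and 0%, against 20.2% and 21.1% of all genes), and the list mean went from 5.02 to 5.03 up to 8.03 to 8.16. LUM and COL1A2 are members of that list. PDGFRB, the platelet-derived growth factor receptor of stroma, was not called (3.35 ± 0.13 and 3.75 ± 0.10). Of 10 smooth muscle and pericyte genes, which mark cells known for AGTR1, 5 rose and 0 fell (50% and 0%, against 20.2% and 21.1% of all genes). Their list mean went from 5.13 to 5.14 up to 6.54 to 6.61. ACTA2, smooth muscle actin, rose by 4.92 log2 units, whereas RGS5, a pericyte gene, stayed among the faintest signals (2.91 ± 0.13 and 2.88 ± 0.081).

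Of 6 genes that mark fibroblasts of the adventitia, 2 rose and 2 fell at 30 days, with a median change of -0.133. The 2 that fell became 1 without the 24h replicate 2 or without the 30-day replicate 2. MFAP5, a microfibril gene, rose by 3.75 ± 0.17 log2 units and SFRP2, a secreted modulator of Wnt signals, by 3.95 ± 0.24, while CD34 fell by 1.72 ± 0.16 (each change ± SE). The other that fell was WNT2, a Wnt ligand. Of 8 motile cilia genes 3 fell and 0 rose, led by the axoneme genes DNAH7 (fell by 2.23 ± 0.25) and SPAG6 (fell by 2.08 ± 0.15). Of 9 genes of oviductal secretory cells, 3 rose and 5 fell. MUC1, a membrane mucin, fell by 5.56 ± 0.14, and CP, ceruloplasmin, rose by 4.80 ± 0.17.

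Markers of leukocytes, endothelium and mesothelium, cells that can carry DPP4 or AGTR1, had list means below 5 on every array, although single members differed from this. Leukocyte markers, 13 in number, had a list mean of 3.63 to 3.94 at 24h and 3.51 to 3.55 at 30 days, and 0 rose while 4 fell. That count of 4 became 0 without the 24h replicate 2, without the 30-day replicate 1 or without the 30-day replicate 2. Of the 13, 7 were among the dimmest 25% of genes, including CD3D, CD4 and AIF1, markers of T cells and macrophages. CD3E and CD5 of T cells, CD14 and CSF1R of macrophages, PTPRC and NKG7 were not. The 5 endothelial markers had list means of 4.06 to 4.23 and 3.79 to 3.91, with 0 higher and 1 lower. For the 5 mesothelial markers the means lay between 4.41 and 4.77 on all 8 arrays, with 1 higher and 2 lower (1 lower without the 24h replicate 1). Within the mesothelial list, WT1, a transcription factor that stroma of the reproductive tract also expresses, was bright at all times (8.93 ± 0.11 at 24h and 8.48 ± 0.020 at 30 days). BNC1, the zinc finger gene basonuclin, rose by 1.74 ± 0.14 at 7 days and stood 1.08 ± 0.14 above 24h at 30 days. KRT5, a keratin of basal cells, fell by 1.35 ± 0.14 at 15 days, and CALB2 was among the dimmest genes. Within the endothelial list, KDR fell by 1.69 ± 0.25 at 7 days and PECAM1 rose by 0.93 ± 0.13 from 7 to 15 days, while TEK was among the dimmest. The falls of the leukocyte genes NKG7 (1.04 ± 0.35, adjusted p = 0.0387) and CD2 (0.38 ± 0.11, adjusted p = 0.0208) at 30 days ended without the 24h replicate 2 (0.151 and 0.124) or without either 30-day array (0.171 and 0.0883 for NKG7, 0.0924 and 0.0590 for CD2). That of CSF1R at 15 days (0.82 ± 0.22, adjusted p = 0.0155) ended without the 24h replicate 2 (0.0982) or the 15-day replicate 1 (0.0919).

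**Figure D3:**
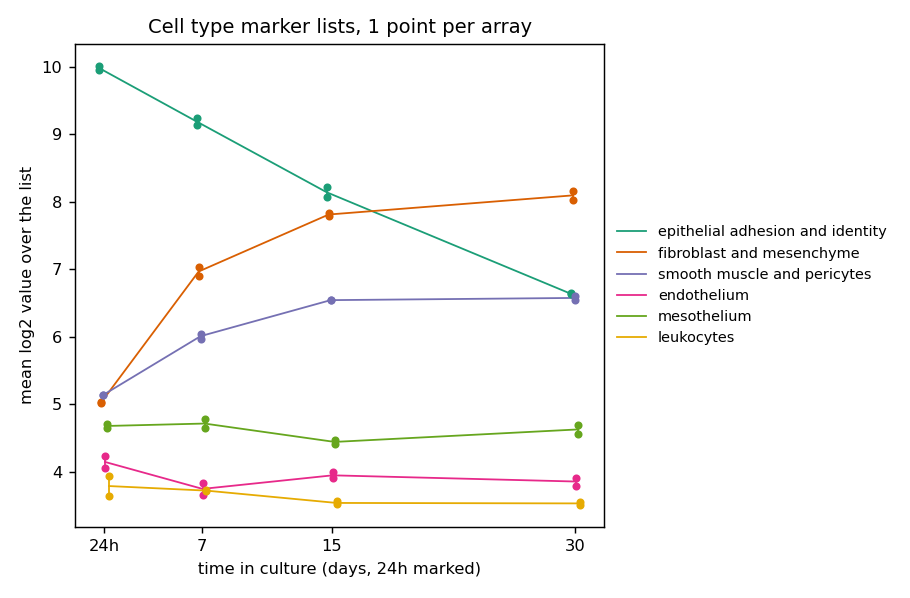
Mean log2 value over each of 6 cell type marker lists on every array, against time in culture, with lines through the middle of each pair. The fibroblast list rose from about 5.02 to between 8.03 and 8.16 and the epithelial list fell from about 9.95 to between 6.63 and 6.65, while leukocyte, endothelial and mesothelial lists stayed below 5 on every array.

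Against 24h, the other renin-angiotensin genes changed about as often as genes in general, with LNPEP and ATP6AP2 higher and ANPEP and THOP1 lower. Of 11 other measured genes of a list of 21, 2 rose and 3 fell between 24h and 30 days (limma, Benjamini-Hochberg adjusted p under 0.05), where 20.2% of all named genes rose and 21.1% fell. The list's median change was -0.099 log2 units, against -0.021 over all genes. At 7 days 2 rose and 2 fell (18.3% and 15.4% of all genes), and at 15 days 2 and 2 (19.3% and 18.1%). Between 7 and 15 days 1 rose and 0 fell (6.58% and 6.72% of all genes). Between 15 and 30 days 3 rose and 0 fell, 27.3% and 0% against 3.94% and 6.11% of all genes. Of those 3, only ANPEP kept its call in all 4 fits that left out an array, against 2 for LNPEP and 0 for ATP6AP2. Over all 4 times, 4 of the 11 differed in limma's moderated F test, as did 46.3% of all genes. The angiotensinogen and renin genes were not analysed here.

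AGTR2, the type 2 receptor gene, was among the dimmest genes and was not called, with means of 3.30 at 24h, 3.29 at 7 days, 3.21 at 15 days and 3.10 at 30 days. ACE, the converting enzyme, lay between 3.57 and 3.70 at all times and was not called. MAS1, the receptor gene of angiotensin 1-7, was faint too (3.39 at 24h and 2.94 at 30 days, adjusted p = 0.023), and its call was kept in 1 of 4 fits that left out an array. The largest change in the list was in LNPEP, the insulin-regulated aminopeptidase that binds angiotensin IV. Its arrays read 6.06 and 6.17 at 24h, 7.94 and 7.69 at 7 days, 8.63 and 8.66 at 15 days, and 9.31 and 9.27 at 30 days. LNPEP rose at 30 days by 3.18 ± 0.12 log2 units (SE), or 9.04-fold (limma adjusted p = 3.97e-08). Here and below, an error after a change is its SE and an error after a level is the SD of 2 arrays.

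ATP6AP2, the receptor of renin and prorenin, rose from 8.44 ± 0.00048 to 9.88 ± 0.055, a change of 1.44 ± 0.11 (limma adjusted p = 4.17e-06). Among the enzymes that break down angiotensins, ANPEP, aminopeptidase N, fell by 2.80 ± 0.14 at 7 days (limma adjusted p = 1.11e-06) and then partly came back. Its means were 7.94, 5.14, 5.63 and 6.89 at the 4 times, and the rise from 15 to 30 days was 1.26 ± 0.14 (limma adjusted p = 4.18e-04). THOP1, thimet oligopeptidase, fell by 1.33 ± 0.11 to 30 days (limma adjusted p = 1.01e-05). ENPEP, glutamyl aminopeptidase, was among the dimmest genes. MME (neprilysin), NLN (neurolysin) and PREP (prolyl oligopeptidase) were expressed with means between 6.32 and 8.77 and were not called at any time.

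**Figure D4:**
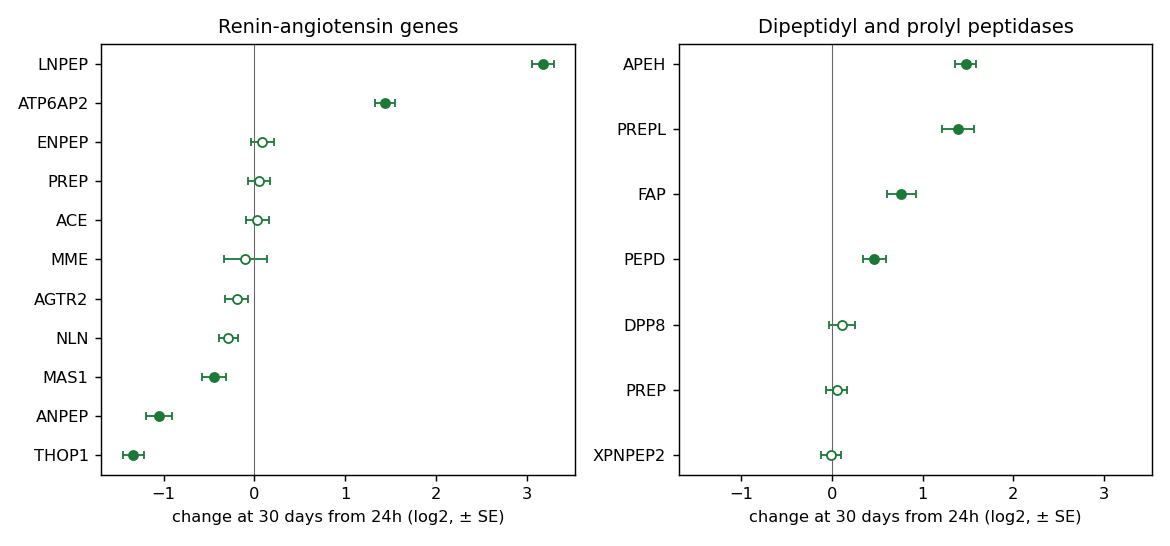
Change from 24h to 30 days (log2, horizontal, with bars of 1 SE) of 11 renin-angiotensin genes and 7 dipeptidyl and prolyl peptidase genes, PREP being in both. Filled points were called by limma, led by LNPEP (3.18) and ATP6AP2 (1.44) in the one list and by APEH and PREPL in the other, with THOP1 (-1.33) lowest.

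The signalling partners of AGTR1 moved in both directions, and 2 of them were among the dimmest genes. Of 21 measured genes for receptor coupling and desensitisation, 4 rose and 8 fell at 30 days, 19.0% and 38.1% against 20.2% and 21.1% of all genes, with a median change of -0.193. GNAQ, the Gq alpha subunit itself, had means of 9.28 at 24h and 9.61 at 30 days and was not called, and neither were the beta-arrestin genes ARRB1 and ARRB2. The 4 that rose were GNAI1 (by 0.71), ITPR2 (0.62), ARHGEF12 (0.56) and ARHGEF11 (0.34), the last called in 0 of 4 fits that left out an array. The largest falls were in RGS2 and RGS4, regulators that switch G protein signals off. RGS5 and RGS16 of that family were not called at 30 days. RGS2, a GTPase activator that acts on Gq, went from 6.47 ± 0.015 at 24h to 4.21 ± 0.23 at 7 days and 3.39 ± 0.11 at 30 days. Its fall at 30 days was 3.08 ± 0.13 log2 units, 8.46-fold (limma adjusted p = 8.74e-08), to a level below 3.62, the bound of the dimmest genes. RGS4, of the same family, first rose by 1.26 ± 0.14 at 7 days and then fell by 1.89 ± 0.14 to 15 days (limma adjusted p = 4.83e-05), ending at 4.45 ± 0.048. PLCB4, a phospholipase C downstream of Gq, fell by 1.27 ± 0.11 at 30 days, and the receptor kinase gene GRK3 fell by 1.16 ± 0.14.

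Genes described elsewhere as induced by angiotensin II were also split. Of 17 measured, 7 rose and 7 fell at 30 days (41.2% each way, against 20.2% and 21.1% of all genes), with a median change of 0.11. By the F test 15 of them differed over the 4 times (88.2%, against 46.3% of all genes). NOX4, an NADPH oxidase, rose by 5.00 ± 0.12 log2 units, 32.1-fold (limma adjusted p = 3.91e-09), from 3.79 ± 0.088 to 8.79 ± 0.12. The matrix genes COL1A1 (4.13 ± 0.14), FN1 (3.82 ± 0.20) and COL3A1 (2.99 ± 0.17) rose with it. COL1A1, COL3A1 and FN1 also stand in the fibroblast marker list. On the other side, chosen after their values were seen, IL6 fell by 1.35 ± 0.15, the osteopontin gene SPP1 by 1.01 ± 0.12 and RCAN1, a calcineurin-responsive gene, by 0.90 ± 0.11. PTGS2, the inducible prostaglandin synthase, also chosen so, fell by 2.89 ± 0.16 from 7 to 15 days and rose by 2.75 ± 0.16 from 15 to 30 days.

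Other receptors of vasoactive peptides and lipids changed about as often as genes in general. Of 30 measured, 4 rose and 7 fell at 30 days (13.3% and 23.3%, against 20.2% and 21.1% of all genes), 10 were among the dimmest, and the median change was -0.009. BDKRB1, the inducible bradykinin receptor, read 5.13 and 5.15 at 24h, 6.61 and 6.67 at 7 days, 9.32 and 9.24 at 15 days, and 9.13 and 8.81 at 30 days. Its rise at 15 days was 4.14 ± 0.13, 17.6-fold (limma adjusted p = 3.18e-08), and its mean at 30 days was no higher (8.97 ± 0.23). The genes of the paired endothelin receptors went apart. EDNRB read 8.71 and 8.41 at 24h, 7.25 and 6.98 at 7 days, 5.27 and 4.87 at 15 days, and 2.89 and 2.72 at 30 days, each time below the one before. It fell by 5.75 ± 0.17 to 30 days, 54.0-fold (limma adjusted p = 1.07e-08). At 30 days EDNRB lay below 3.62, the bound of the dimmest genes, so this fold may be understated. EDNRA, the other endothelin receptor, chosen after its values were seen, rose by 2.09 ± 0.14 over the same time, from 5.58 ± 0.014 to 7.67 ± 0.16.

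F2RL1, the protease-activated receptor of epithelia, fell by 4.21 ± 0.14 to 30 days (limma adjusted p = 1.71e-08), with most of the fall after 15 days, from 7.91 ± 0.069 to 5.43 ± 0.27. LPAR1, a receptor of lysophosphatidic acid, fell by 2.57 ± 0.24 (limma adjusted p = 1.56e-05). NPR1, the natriuretic peptide receptor that makes cyclic GMP, chosen after its values were seen, rose by 2.10 ± 0.14 in the first week and stood at 7.02 ± 0.21 at 30 days. The vasopressin receptor gene AVPR1A and the alpha-1A adrenergic receptor gene ADRA1A remained among the dimmest signals.

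**Figure D5:**
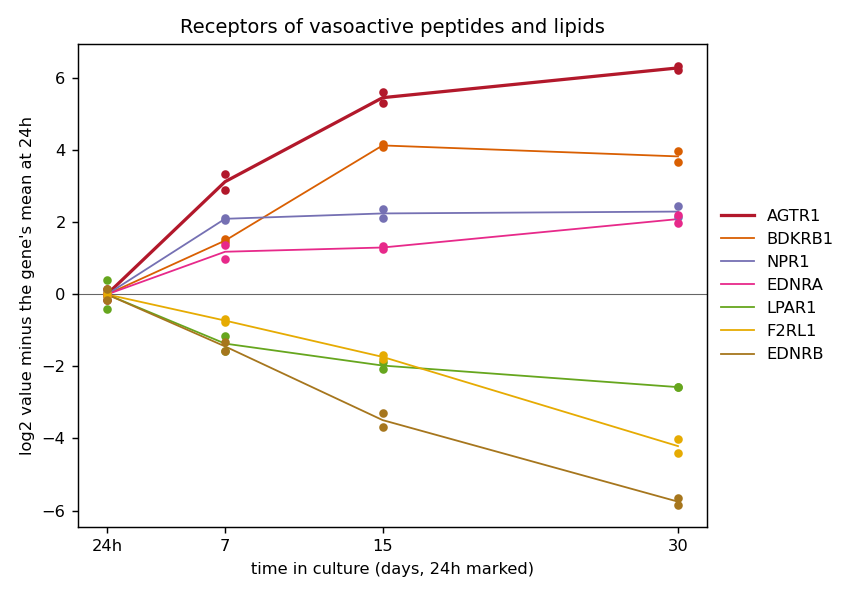
Log2 value minus the gene's own mean at 24h, for AGTR1 and 6 other receptor genes against time in culture, with 1 point per array and lines through the means. AGTR1, BDKRB1, NPR1 and EDNRA lie above their start at 30 days (6.29, 3.83, 2.30 and 2.09), and LPAR1, F2RL1 and EDNRB below it (-2.57, -4.21 and -5.75).

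Other dipeptidyl and prolyl peptidases changed less than DPP4, which was chosen for its large rise, so this contrast largely follows from the choice. Of 7 other dipeptidyl and prolyl peptidases measured, from a list of 15, 4 rose and 0 fell at 30 days (57.1% and 0%, against 20.2% and 21.1% of all genes), with a median change of 0.468. Between 7 and 15 days and between 15 and 30 days, 0 of the 7 were called by limma in either direction, where 6.58% and 3.94% of all genes rose and 6.72% and 6.11% fell, so a count of 0 among 7 is near the background. FAP, the nearest relative of DPP4, read 2.80 and 2.57 at 24h, 2.88 and 2.62 at 7 days, 2.98 and 2.82 at 15 days, and 3.64 and 3.26 at 30 days. It rose by 0.77 ± 0.16 (limma adjusted p = 0.00312), and with a mean below 3.62 it was still one of the dimmest genes. APEH, the acylaminoacyl peptidase, rose by 1.57 ± 0.12 at 15 days (limma adjusted p = 5.33e-06), nearly all of it by 7 days (1.34 ± 0.12). PREPL, a prolyl endopeptidase-like protein, rose by 1.39 ± 0.18 to 30 days (limma adjusted p = 1.42e-04). PEPD, the cytosolic prolidase, rose by 0.51 ± 0.12 at 15 days (limma adjusted p = 0.00912) and by 0.47 at 30 days. The PEPD calls at 15 and 30 days were each kept in only 2 of 4 fits that left out an array. DPP8, a cytosolic relative with the same cleavage preference, had means of 7.96 at 24h and 8.08 at 30 days and was not called.

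In a broader list of 18 membrane and secreted ectopeptidases, which also holds LNPEP, ANPEP and FAP, 5 rose and 2 fell at 30 days (27.8% and 11.1%, against 20.2% and 21.1% of all genes), with a median change of 0.010. The 2 that fell became 1 without the 24h replicate 2 or without the 30-day replicate 2. CPE, carboxypeptidase E of peptide hormone processing, rose by 1.74 ± 0.11 at 15 days (limma adjusted p = 1.68e-06). ECE1, the endothelin-converting enzyme, rose by 1.56 ± 0.17 at 7 days (limma adjusted p = 8.85e-05) and then fell by 1.03 ± 0.17 from 15 to 30 days. Its level at 30 days, 8.08 ± 0.40, was near that at 24h, 8.29 ± 0.094.

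Peptides and chemokines that DPP4 is known to cleave ranged from faint to bright. Of 21 measured, 10 were among the dimmest 25% of genes, including GCG, NPY and VIP, which encode glucagon-like peptides, neuropeptide Y and vasoactive intestinal peptide. At 30 days 1 rose and 6 fell (4.76% and 28.6%, against 20.2% and 21.1% of all genes), with a median change of -0.062. Without the 24h replicate 1 the count that rose was 2, and without the 30-day replicate 2 the count that fell was 3. The gene that rose was CCL11, eotaxin. It read 3.67 and 3.83 at 24h, 5.50 and 4.95 at 7 days, 4.72 and 4.37 at 15 days, and 6.73 and 5.86 at 30 days. Its change at 30 days was 2.55 ± 0.27 (limma adjusted p = 4.24e-05), and the arrays at 30 days lay above all the others. CXCL10, an interferon-induced chemokine, read 6.55 and 5.34 at 24h and fell by 2.05 ± 0.30 at 7 days (limma adjusted p = 5.17e-04), a value that ranged from -2.65 to -1.45 when single arrays were left out. CXCL2 fell by 1.44 ± 0.14 to 30 days (limma adjusted p = 2.67e-05), from 10.01 ± 0.26. CXCL12, the stromal chemokine, was faint (3.38 at 24h and 3.45 at 30 days). The fall of CCL4 at 15 days (0.80 ± 0.25, adjusted p = 0.0278) ended without the 24h replicate 2 (0.110) or without either 15-day array (0.114 and 0.0939).

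A list of 17 genes held binding partners of DPP4, receptors of its substrates and also receptors of adenosine, which is not a substrate of DPP4. At 30 days 3 rose and 6 fell (17.6% and 35.3%, against 20.2% and 21.1% of all genes), with a median change of -0.124. The 6 that fell became 2 without the 24h replicate 2, and 3 without either 30-day array. FN1, whose product binds DPP4, rose most among them, to 11.63 ± 0.012 at 15 days from 7.64 ± 0.43 at 24h (limma adjusted p = 3.97e-07). The adenosine receptor genes diverged, with ADORA1 among the 3 that rose at 30 days and ADORA2A and ADORA3 among the 6 that fell. ADORA3 was faint, with 3.68 and 3.97 at 24h and 3.43 and 3.50 at 30 days. Its change of -0.36 ranged from -0.50 to -0.22 when single arrays were left out. ADORA1 rose by 1.44 ± 0.12 in the first week (limma adjusted p = 1.71e-05) and held 7.06 ± 0.017 at 30 days, while ADORA2A fell by 1.83 ± 0.17 at 15 days (limma adjusted p = 2.71e-05). CXCR4, the CXCL12 receptor and a DPP4 partner, rose by 1.30 ± 0.15 at 7 days and fell by 1.42 ± 0.15 from 7 to 15 days (limma adjusted p = 2.83e-04). PTPRC, the leukocyte protein CD45 that binds DPP4 on T cells, had 4.41 ± 0.80 at 24h and 3.46 ± 0.15 at 30 days, and its call at 30 days (adjusted p = 0.0358) ended without the 24h replicate 2 (0.243) or either 30-day array (0.0829 and 0.167). GLP1R, the incretin receptor gene, was not called (4.50 at 24h and 4.32 at 30 days).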

How the data were processed

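Each array holds 1 deposited log2 value per probe set, made by the authors with RMA, per the submitters' processing notes. RMA subtracts background, equalises the distributions of arrays and combines probes, so a shift of most genes one way would not show. Its version, the annotation build and any filter remain not given in the sources used here. Array medians lay between 4.69 and 4.77, and the number of arrays limits the precision.

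Of 27558 probe sets, 11968 had 1 gene symbol, 379 with several or conflicting symbols were dropped, and 15211 had no name here. Identifiers of 11102 matched RefSeq genes of Sscrofa11.1, used for names and gene order only. The probe set with the highest mean was kept for 966 genes with several, which left 10901 genes. The number of array pairs with identical values was 0.

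Expression was modelled in R 4.3.3 by lmFit and eBayes of limma 3.58.1 over all 8 arrays, 1 mean per time and 4 residual degrees of freedom. The call threshold was 0.05 for p-values adjusted over all tested genes (Benjamini-Hochberg), and only called genes are said to rise or fall. AGTR1 and DPP4 are described without p. List counts leave both out, and dim genes are the lowest 25% by mean. Members, the 8 gene lists, the marker lists and the tests were chosen with earlier results of these data known. The rule for names took up to 4 called genes of each list with the largest change, any member of the renin-angiotensin and dipeptidyl peptidase lists, and for AGTR1 and DPP4 the 8 genes most alike and the 4 most opposite. Others are marked as picked with values in view, or are named as faint or not called, or for their role, with their values known.

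Alternatives were median centring, quantile normalization, leaving out the dimmest 25%, averaging the probe sets of a gene, a replicate block, a trended and robust variance, only the 2 groups compared, each array left out and a 2-fold minimum. In a simulation of the contrast of 30 days with 24h on 10901 genes, 90 of 100 genes changed 2-fold and 97 of 100 changed 4-fold were recovered with the correct sign, and 6 unchanged ones were also called. It drew independent normal noise from the spread between arrays and changed only those genes, at 30 days, whereas 4494 genes were called in the data. Its counts are thus no error rates of the real contrast.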

Additional observations from a re-analysis of the deposited data

How the results depend on the processing

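The differences of AGTR1 and DPP4 kept their direction under the alternatives run on them. Those were median centring, quantile normalization, averaged probe sets, the replicate block and each array left out. Both genes were chosen for large rises, so a kept direction is no separate evidence. Averaging could not act on them, with 1 probe set each, and the block cannot change differences when each time holds both replicates. Leaving out single arrays, the rise of AGTR1 ranged from 2.90 to 3.36 at 7 days against 24h and from 2.11 to 2.56 between 7 and 15 days. Without a 7-day array these rises moved by just over the pooled SD of 0.226. With 2 arrays per time, that shift follows from the SD of the 7-day pair, 0.32. With a 2-fold minimum, the counts at 30 days against 24h became 0 higher and 4 lower for receptor coupling, and 4 higher and 2 lower for genes induced by angiotensin II. They became 2 higher for dipeptidyl and prolyl peptidases, 3 higher and 1 lower for ectopeptidases, and 2 lower for DPP4 substrates. The list of DPP4 partners, which includes receptors of its substrates and of adenosine, had 1 lower. DPP4 substrates had 2 higher under median centring, under quantile normalization and with the replicate block, against 1. DPP4 partners had 3 lower under quantile normalization and with only the 2 groups compared, against 6. Without single arrays, ectopeptidases called lower ranged from 1 to 3, substrates called higher from 1 to 2 and lower from 3 to 5, and partners called lower from 2 to 6. Times share replicate numbers 1 and 2, and deviations of same-numbered arrays correlated between 0.0080 and 0.268, which does not pair them. The replicate block gave 4613 called genes at 30 days against 4494. Of 62 gene changes that the naming rule picked from the lists, not all of them printed, 51 kept their direction and call under every alternative, and 0 were reversed. Faint signals limit genes near the floor of the arrays.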

Other observations

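Protein-coding genes beside AGTR1 and DPP4 in the RefSeq order, up to 4 on each side, were looked up after the values of both were known. Of those measured around AGTR1, ZIC1, ZIC4, PLSCR5 and CPB1 were among the dimmest 25% of genes and were not called in any comparison. HLTF, a DNA helicase gene at the fourth place after AGTR1, had means of 7.03 ± 0.26, 6.93 ± 0.34, 7.78 ± 0.10 and 7.66 ± 0.094 (SD, n = 2) at 24h, 7, 15 and 30 days, and rose by 0.85 log2 units between 7 and 15 days (limma adjusted p = 0.012). Around DPP4, GCG, SLC4A10 and TBR1 were among the dimmest, and TANK, an adaptor of innate immune signalling, stayed between 6.44 and 6.58. FAP, which follows DPP4 after GCG, is described among the dipeptidyl and prolyl peptidases. IFIH1, the viral RNA sensor MDA5, comes next. Its means were 8.22 ± 0.25 at 24h, 6.03 ± 0.12 at 7 days, 6.88 ± 0.11 at 15 days and 7.56 ± 0.12 at 30 days, so it fell by 2.20 log2 units in the first week (limma adjusted p = 4.6e-06), when DPP4 rose. None of the measured neighbours rose by as much as 1 log2 unit in any of the 5 comparisons, which do not include 30 days against 7 days. Over that longer span the mean of IFIH1 went from 6.03 to 7.56, while DPP4 also rose.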
